A study of Homo sapiens with 12 samples.

Results

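The nuclear genes of the mitochondrial respiratory chain and ATP synthase were examined in HK-2, an immortalized cell line from the proximal tubule epithelium of the human kidney. Members were all probe sets annotated to exactly 1 nuclear gene whose present symbol begins with NDUFA, NDUFB, NDUFC, NDUFS, NDUFV, UQCR, ATP5, COX4I, COX5, COX6, COX7 or COX8, or is CYC1 or one of the SDH subunit genes, without NDUFAF genes and pseudogenes. This gave 156 of the 54675 probe sets, for 81 of 19775 genes. Complex I had 62 probe sets of 33 genes, complex II 10 of 3 (SDHA, SDHC and SDHD), complex III 14 of 7, complex IV 28 of 17 and ATP synthase 38 of 18. Another 4 probe sets belonged to 3 noncoding RNAs that the symbols take in (NDUFB2-AS1, NDUFV1-DT and NDUFV2-AS1).

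The 12 arrays fall into 4 groups of 3 replicates, which the labels call biological. Cells were exposed for 12 h or 48 h to CsA or to the vehicle for the same time. CsA is taken to be cyclosporin A, an immunosuppressant that acts through cyclophilins and calcineurin. All 4 groups were the same cell line in the same hormone-supplemented medium with 5 mM glucose and 10 ng/ml EGF, seeded 24 h before exposure and treated at about 90% confluency. Neither the dose nor the vehicle's name is given in the labels used here.

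The respiratory chain passes electrons from NADH (complex I) or succinate (complex II) through complex III and cytochrome c to oxygen at complex IV, and pumps protons that ATP synthase uses to make ATP. A few core subunits are encoded in mitochondrial DNA and the rest, described here, in the nucleus. The proximal tubule depends on this route for the energy of its transport, while many cultured kidney lines also draw on glycolysis.

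Among the marker genes looked up, the epithelial genes KRT8, KRT18, KRT19 and EPCAM passed the filter on low values (a log2 value above 4 on at least 3 arrays), 4 of 5 in all. Of 16 proximal tubule genes on the array, 5 passed (SLC4A4, PDZK1, CDH6, CDH16 and PAX8), while LRP2, CUBN, SLC34A1 and AQP1 did not. No endothelial (0 of 4) or leukocyte (0 of 3) gene passed, and 5 of 6 fibroblast genes did. So did 2 of 4 podocyte genes (PODXL and SYNPO) and 2 of 4 genes of the loop, distal tubule and collecting duct (SLC12A1 and AQP2). The share of probe sets above this level ran from 42.1% to 42.7% over the 12 arrays. Some arrays at 48 h stood apart in their control probe sets. The median log2 value of the hybridization controls was 7.38 on CsA 48 h replicate 3 against 9.89 to 11.4 on the others, and that of the poly-A controls was 5.04 and 4.32 on the replicate 1 arrays of CsA and control at 48 h against 8.38 to 10.2. The ACTB 3′ minus 5′ log2 difference, which is high where RNA is broken, was 1.22 on CsA 48 h replicate 3 and 1.33 on control 48 h replicate 1 against 0.731 to 0.985 on the others. That of GAPDH was 0.143 on CsA 48 h replicate 3 against -0.112 to 0.0158. CsA 48 h replicate 3 also had the highest mean of mitosis genes in its group, 9.19 against 7.57 and 7.04. Several results at 48 h are given with and without this array, and a result given only with it was not always unmoved by it.

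Promoters of 4 members are shown. Those of ATP5MC1, ATP5MC2 and COX7A2L belong to genes that behaved differently below. ATP5MC1 fell with time in culture, ATP5MC2, which encodes the same mature protein, did not pass the test, and COX7A2L rose. ATP5PF was chosen because it carries 3 of the motifs searched. Each run is the 120 bases before the RefSeq start on GRCh38.p14, 5′ to 3′, at chr17:48892667-48892786 (plus strand), chr12:53676084-53676203 (minus), chr21:25735055-25735174 (minus) and chr2:42361218-42361337 (minus). Capitals mark any match, on either strand, to the 7 motifs named after them.
ATP5MC1: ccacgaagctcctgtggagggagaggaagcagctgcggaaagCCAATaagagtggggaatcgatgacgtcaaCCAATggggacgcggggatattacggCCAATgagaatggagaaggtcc
ATP5MC2: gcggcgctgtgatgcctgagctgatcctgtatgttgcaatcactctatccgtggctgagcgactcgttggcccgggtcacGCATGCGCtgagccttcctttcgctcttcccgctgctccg
ATP5PF: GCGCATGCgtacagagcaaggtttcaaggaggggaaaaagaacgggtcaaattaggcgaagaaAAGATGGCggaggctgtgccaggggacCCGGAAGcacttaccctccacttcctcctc
COX7A2L: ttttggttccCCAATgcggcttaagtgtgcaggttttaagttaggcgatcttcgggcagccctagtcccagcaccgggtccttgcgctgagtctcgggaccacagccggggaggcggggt

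NRF1, ETS-family factors (GABP among them), YY1 and the oestrogen-related receptors (ERR) are known to drive nuclear genes of the respiratory chain, and the other motifs are common core promoter elements. The motifs were the NRF1 core (GCATGCGC), the ETS core (CCGGAAG), the YY1 core (AAGATGGC), the ERR site (AAGGTCA), the CCAAT box (CCAAT), the GC box (GGGCGG) and the TATA box (TATAAA). RefSeq windows of 300 bases were matched for 62 of the 72 protein-coding member genes tested. In these whole windows the NRF1 core was found in 12 genes, 19.4% against 4.26% of all 15843 protein-coding windows. The ETS core was in 29% of member windows against 14.2%, the YY1 core in 16.1% against 3.91% and the ERR site in 12.9% against 3.13%. The CCAAT box (32.3% against 36.4%), the GC box (62.9% against 58.5%) and the TATA box (9.68% against 9.63%) were in like shares of both. At least 1 of the first 4 motifs was present in 34 of the 62 windows. In the runs shown, ATP5MC1 has 3 CCAAT boxes, ATP5MC2 has 1 NRF1 core, ATP5PF has 1 each of the NRF1, YY1 and ETS cores, and COX7A2L has 1 CCAAT box. These matches are letters in a window and show neither binding nor a cause.

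Of the 156 member probe sets, 117 passed the filter and were tested, for 72 genes, and 39 did not. The 9 genes with no probe set tested were ATP5MF, the 3 noncoding RNAs and 5 complex IV genes, namely COX6A2 and COX7A1, known as heart and muscle isoforms, COX6B2 and COX8C, known from testis, and COX7B2. Most members were bright. Taking the brightest probe set of each gene, the median log2 level was 13.30 against 8.67 over all probe sets tested, and 57 of 72 genes lay above 12. Levels ran from 6.26 for COX4I2, the hypoxia-inducible form of complex IV subunit 4, to 15.18 for UQCRB, a small complex III subunit. A probe set's brightness also depends on its probes, so no order between genes is read from it. Members varied less between replicates than probe sets at large, which were dimmer, and probe sets of like brightness were not compared. The median SD over members against that over all probe sets tested was 0.074 against 0.117 in CsA 12 h, 0.062 against 0.116 in control 12 h, 0.150 against 0.223 in CsA 48 h and 0.106 against 0.168 in control 48 h.

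After 12 h of CsA no member passed the test, and the subunit genes lay close to their controls. The background was also empty: limma called 0% of the 23671 probe sets at an adjusted p under 0.05 in either direction. The median difference of the 117 probe sets was -0.03 on the log2 scale (CsA minus control) against -0.00 over all probe sets, and 86 were below 0 (73.5% against 51.8%). All 3 CsA arrays lay below all 3 control arrays for 11 members (9.4% against 5.77% of all probe sets) and above them for 0 (6.05% of all probe sets). At an unadjusted p under 0.05, 2 members were lower and 0 higher, where 2.82% of all probe sets were lower and 3.57% higher. As shares of the 117, both counts were below that background.

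The lowest p at 12 h among members belonged to a dim probe set of ATP5IF1, the inhibitor that stops ATP synthase from running backwards. It read 7.40, 7.85 and 7.54 in control and 6.49, 7.03 and 6.77 with CsA. The groups did not overlap, with a difference of -0.83 ± 0.17 (SE, adjusted p = 0.581, and 0.270 with the replicate number as a block). The gene's 2 bright probe sets differed by -0.06 ± 0.09 and 0.03 ± 0.06. NDUFS3, a core subunit of the matrix arm of complex I, read 11.39, 11.34 and 11.31 in control and 11.06, 11.15 and 11.19 with CsA. Its groups did not overlap either, and the difference was -0.21 ± 0.06 (adjusted p = 0.656, and 0.367 with the block). By complex, the 12 h changes stayed near 0, as the plot of CsA changes by complex shows.

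**Figure D1:**
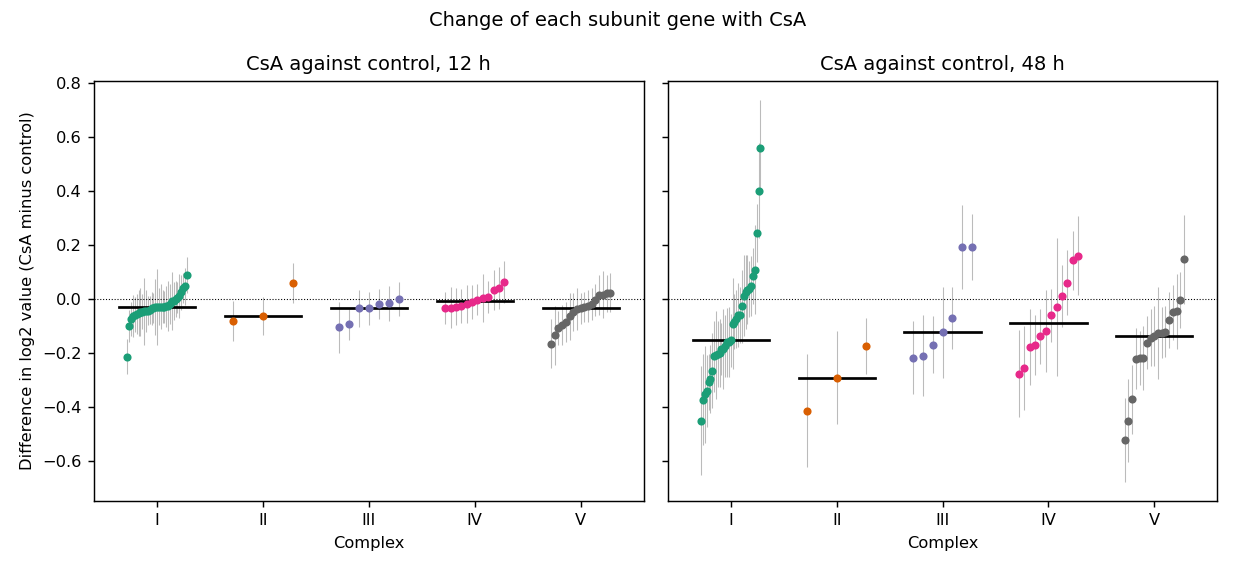
Difference in log2 value between CsA and control cells at 12 h (left) and 48 h (right), 1 point for the brightest probe set of each of 72 genes, by complex, with the standard error of the fit as a grey line and the median of each complex as a black bar. At 12 h the points lie between -0.21 and 0.09, and at 48 h between -0.52 (ATP5MC1) and 0.56 (NDUFV3).

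After 48 h of CsA again no member passed the test (smallest adjusted p = 0.134), in a comparison where limma called 0.00845% of all probe sets higher and 0.0338% lower. Most members were nevertheless on the low side of their controls. The median difference was -0.16 against -0.01 over all probe sets, and 92 of 117 were below 0 (78.6% against 50.9%). All 3 CsA arrays lay below all 3 control arrays for 36 members, 30.8% against 14.8% of all probe sets, and above them for 5, 4.27% against 12.4%. At an unadjusted p under 0.05 the counts were 13 lower and 1 higher, where 11.7% of all probe sets were lower and 7.64% higher. As shares of the 117, the lower count was near that background and the higher count below it. Without CsA 48 h replicate 3 the median was -0.11, with 89 below 0.

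A fit of all 12 arrays, which lends the smaller spread of the 12 h arrays to 48 h, called 11 members at 48 h. Of these, 10 were lower and 1 higher, where it called 7.87% of all probe sets lower and 4.49% higher. As shares of the members tested, the lower calls were near that background and the higher call below it. In simulated data this fit made many false calls at 48 h, so its calls are given only as an alternative. These were ATP5MC1, the 3 probe sets of ATP5MC3, ATP5IF1, NDUFS3, NDUFB10, NDUFA6, UQCR11 and COX5A, all lower, and NDUFV3, higher. The count depended on single arrays. It was 0 without control 48 h replicate 2, 3 without control 48 h replicate 1, 4 without CsA 48 h replicate 1, 6 without CsA 12 h replicate 2, 7 without CsA 12 h replicate 3 or control 12 h replicate 2 or 3, and 1 without both replicate 1 arrays of 48 h. Over the 12 fits that left out 1 array each, ATP5IF1 lost its call in 12, NDUFB10 in 11, 1 probe set of ATP5MC3 in 10, NDUFS3 in 7 and COX5A in 6, and the others in 1 to 3.

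Taking the brightest probe set of each ATP synthase gene, ATP5MC1 and ATP5MC3, 2 of the 3 genes of subunit c, had the lowest differences at 48 h. Subunit c forms the rotating membrane ring, and ATP5MC1, ATP5MC2 and ATP5MC3 encode the same mature protein behind different import sequences. ATP5MC1 read 11.17, 11.02 and 10.98 in control at 12 h, 10.76, 10.99 and 10.93 with CsA at 12 h, 9.94, 9.91 and 9.68 in control at 48 h and 9.44, 9.06 and 9.46 with CsA at 48 h. The 48 h arrays were all below the 12 h arrays, and the CsA arrays at 48 h were below the controls of that time. The CsA difference was -0.16 ± 0.09 at 12 h (adjusted p = 0.829) and -0.52 ± 0.15 at 48 h (adjusted p = 0.162), and the difference between these was -0.36 ± 0.18 (adjusted p = 0.381). Without CsA 48 h replicate 3 the 48 h difference was -0.59.

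ATP5MC3 read 14.30, 14.27 and 14.19 in control at 12 h, 14.13, 14.11 and 14.19 with CsA at 12 h, 13.58, 13.67 and 13.32 in control at 48 h and 13.19, 13.18 and 12.85 with CsA at 48 h in its brightest probe set. The 4 groups stepped down in the same order as for ATP5MC1, and the 48 h groups did not overlap. Its 3 probe sets gave CsA differences of -0.45 ± 0.15, -0.51 ± 0.15 and -0.65 ± 0.17 at 48 h. Without CsA 48 h replicate 3 these were -0.34, -0.38 and -0.68. ATP5MC2 ran the other way, with 13.81, 13.84 and 13.87, then 13.69, 13.97 and 13.90, then 13.90, 14.18 and 13.97, and then 14.00, 14.03 and 14.46. Its 48 h groups overlapped (0.15 ± 0.17, adjusted p = 0.672), and without the high CsA replicate 3 the difference was 0.0012.

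**Figure D2:**
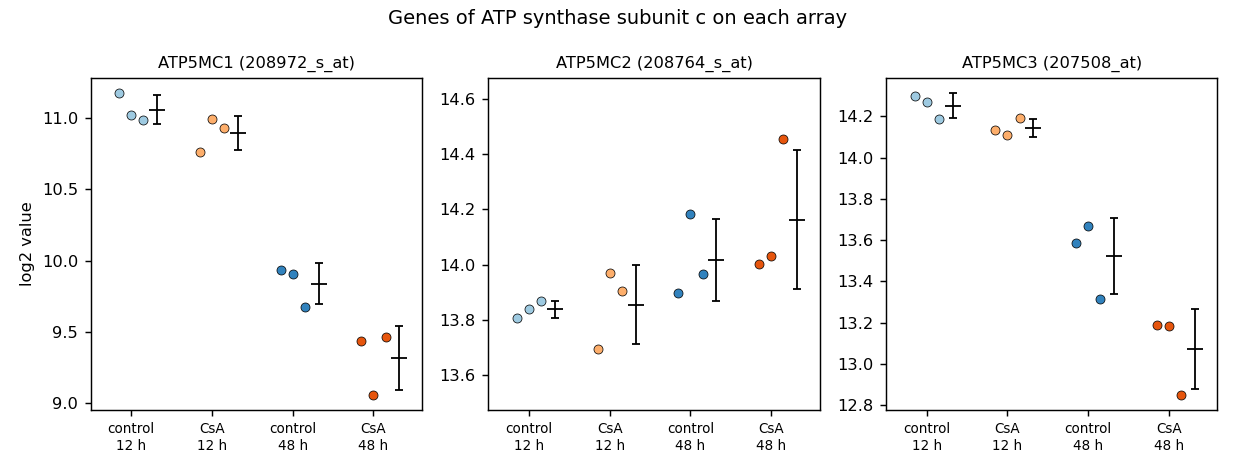
Log2 value of the 3 genes of ATP synthase subunit c on each of the 12 arrays (points, 3 per group), with the mean and SD of each group beside them; the vertical axes differ between panels. ATP5MC1 and ATP5MC3 are lower at 48 h than at 12 h in both treatments, and ATP5MC2 overlaps between CsA and control at each time.

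The rest of ATP synthase differed less at 48 h. Of the 32 probe sets of the complex, 30 were below 0, with a median of -0.14. The F1 head, which holds the catalytic sites, had a median of -0.05, the peripheral stalk -0.12, the small membrane subunits -0.15 and the c ring -0.51. The c ring median rests largely on 1 gene, ATP5MC3, with 3 probe sets, and ATP5MC2 was above 0 (0.15). The catalytic subunit beta, ATP5F1B, differed by -0.04 ± 0.14. ATP5F1A, the alpha subunit, read 15.04, 15.06 and 14.98 in control and 14.89, 14.77 and 14.77 with CsA, without overlap (-0.22 ± 0.10, adjusted p = 0.303). ATP5IF1 read 12.46, 12.49 and 12.32 in control and 12.19, 12.10 and 11.86 with CsA in its brightest probe set. These groups did not overlap (-0.37 ± 0.13, adjusted p = 0.205), and without CsA 48 h replicate 3 the difference was -0.28. The other probe sets of ATP5IF1 differed by -0.27 ± 0.12 and, for the dim one, -1.39 ± 0.50.

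In complex I, 30 of 45 probe sets were below 0 at 48 h, with a median of -0.16. The core subunits, which carry the flavin and iron-sulphur centres, had a median of -0.04 and 4 of 8 below 0, and the accessory subunits a median of -0.16. NDUFS3 read 11.16, 11.16 and 11.05 in control and 10.86, 10.73 and 10.86 with CsA. The groups did not overlap (-0.31 ± 0.10, adjusted p = 0.196). The core subunit NDUFS7, which holds the last iron-sulphur centre before ubiquinone, lay the other way, with 9.69, 9.66 and 9.70 in control and 9.93, 9.88 and 10.45 with CsA. This difference of 0.40 ± 0.18 (adjusted p = 0.284) was 0.22 without CsA replicate 3.

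Among the accessory subunits of complex I, NDUFV3, a small partner of the NADH-oxidizing module, had the highest difference. It read 9.63, 9.59 and 9.90 in control and 10.31, 9.98 and 10.52 with CsA at 48 h, against 9.24 to 9.40 on the 12 h arrays, in its brighter probe set. All 3 CsA arrays lay above the controls (0.56 ± 0.18, adjusted p = 0.175), and without CsA 48 h replicate 3 the difference was 0.44. A second probe set differed by 0.26 ± 0.16. NDUFS4, an accessory subunit of the matrix arm, was above control on all 3 arrays, with 11.57, 11.63 and 11.68 against 11.97, 11.88 and 11.77 (0.24 ± 0.11, adjusted p = 0.286). On the low side, NDUFB3, of the membrane arm, read 9.92, 9.91 and 9.55 in control and 9.51, 9.55 and 8.98 with CsA. Its groups overlapped narrowly (-0.45 ± 0.20, adjusted p = 0.295), and without CsA replicate 3 the difference was -0.26. NDUFB1 differed by -0.37 ± 0.17, and by -0.21 without that array. The dimmer probe set of NDUFA6 read 8.58, 8.69 and 8.26 against 7.98, 7.95 and 8.01, without overlap (-0.53 ± 0.14, adjusted p = 0.138).

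All 8 tested probe sets of complex II, the enzyme shared by the chain and the citric acid cycle, were below 0 at 48 h, with a median of -0.43. Of these, 6 belong to 1 gene, SDHC, a membrane anchor, and the median was -0.18 without CsA replicate 3. The brightest probe set of SDHC read 13.13, 13.03 and 12.97 in control and 12.79, 12.92 and 12.18 with CsA, so that replicate 3 lay well below the rest. The difference was -0.41 ± 0.21 with this array and -0.19 without it. SDHA, the flavoprotein subunit, read 11.34, 11.12 and 10.79 against 10.95, 10.67 and 10.77, with overlap (-0.29 ± 0.17), and without control replicate 1 the difference was -0.16. Its only tested probe set ends in x_at and can share probes with related sequences. The other anchor, SDHD, differed by -0.17 ± 0.10.

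In complex III, 10 of 12 probe sets were below 0 at 48 h, with a median of -0.19, and -0.09 without CsA replicate 3. The 2 above 0 were CYC1, cytochrome c1, and UQCRC1, a core protein. CYC1 read 12.56, 12.74 and 12.88 in control and 12.93, 12.86 and 12.98 with CsA, with overlap (0.19 ± 0.12), and without control replicate 1 the difference was 0.11. UQCRC1 differed by 0.19 ± 0.16, and by 0.04 without CsA replicate 3. UQCR10, a small subunit, differed by -0.21 ± 0.15 and UQCRQ by -0.22 ± 0.13, and without that array by -0.09 and -0.10.

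In complex IV, 14 of 20 probe sets were below 0 at 48 h, with a median of -0.14, and -0.06 without CsA replicate 3. COX7A2, the form of subunit 7A found in most tissues, differed by -0.27 ± 0.16 and COX6B1 by -0.25 ± 0.15, or -0.13 and -0.14 without that array. COX6A1, the common form of subunit 6A, read 14.85, 14.83 and 14.82 in control and 14.90, 14.92 and 15.12 with CsA. Its CsA arrays were all above control, by 0.14 ± 0.11 (adjusted p = 0.520), and by 0.07 without CsA replicate 3. COX5B differed by 0.16 ± 0.15, and by 0.05 without CsA replicate 3. COX4I1 differed by -0.17 ± 0.11 and its paralogue COX4I2 by -0.03 ± 0.26. The dim second probe set of COX5A was at -0.70 ± 0.19, and at -0.89 without CsA replicate 3, while the bright one was at -0.06 ± 0.10.

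The CsA differences at 48 h and at 12 h were set against each other in a fit of all 4 groups. No member passed (smallest adjusted p = 0.178), where 0.0676% of all probe sets were called higher and 0.253% lower. The median difference of differences was -0.13, with 87 of 117 below 0 (74.4% against 51.5% of all probe sets). At an unadjusted p under 0.05, 5 members were lower and 2 higher, where 9.42% of all probe sets were lower and 5.99% higher. As shares of the 117, both counts were below that background.

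The larger changes of these genes were between 12 h and 48 h, in control cells too. In control cells 24 member probe sets fell and 4 rose between the times, in a culture where 18% of all probe sets fell and 19.8% rose. The share that fell, 20.5%, was near that background, and the share that rose, 3.42%, was below it. The median change was -0.12 against 0.02 over all probe sets. With the replicate number as a block, since same-numbered controls deviated together, 25 were called. Without any 1 of the control 12 h arrays the count was 15 or 16. Mitosis genes also fell in this comparison, 37 of 38 probe sets (97.4%), as did 44 of 46 of DNA replication genes (95.7%), and their part in the subunit changes was not tested. In whole cultures, fewer cells of a kind and less RNA per cell cannot be told apart.

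In CsA cells 34 member probe sets fell and 4 rose between 12 h and 48 h, where 19.2% of all probe sets fell and 19.3% rose. The share that fell was 29.1%, and the median change -0.23 against 0.02. The count was 38 in all, and 22, 20 and 20 without CsA 12 h replicate 1, 2 or 3. The control and CsA comparisons share no arrays, though same-numbered control and CsA arrays at 12 h deviated together. Of the members that fell, 20 did so in both, 83.3% of those in control and 58.8% of those in CsA cells, and over all probe sets the shares were 70.3% and 66%. Of the members that rose, 3 did so in both: NDUFV3, COX7A2L and a dim probe set of SDHC. They were 75% of the rises in control and 75% of those in CsA cells. Over all probe sets these shares were 68.1% and 69.9%, so the overlap was near the background.

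**Figure D3:**
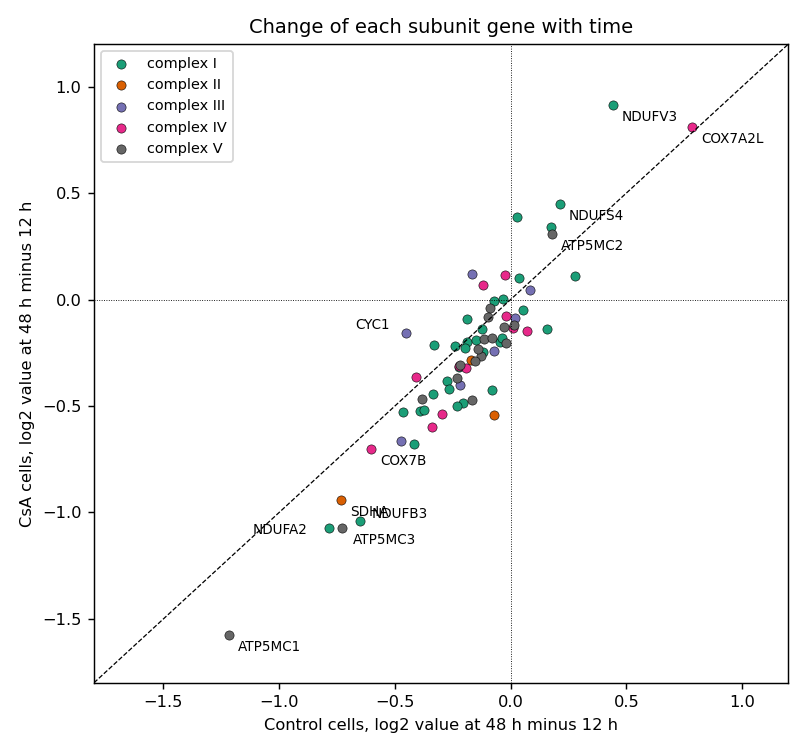
Difference in log2 value between 48 h and 12 h in control cells (horizontal) and in CsA cells (vertical), 1 point for the brightest probe set of each of 72 genes, coloured by complex, with the line of equal change dashed. Most genes lie at the lower left, led by ATP5MC1 (-1.22 and -1.57), and COX7A2L and NDUFV3 stand at the upper right.

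ATP5MC1 had the largest fall with time among the brightest probe sets. It fell by 1.22 ± 0.11 on the log2 scale in control cells (adjusted p = 0.00062), to 0.43 of the 12 h level, and by 1.57 ± 0.14 with CsA (adjusted p = 0.00094), to 0.34. ATP5MC3 fell by 0.73 ± 0.11 in control (adjusted p = 0.0042) and by 1.07 ± 0.12 with CsA (adjusted p = 0.0018). Its dimmest probe set, at -0.41 ± 0.14 in control (adjusted p = 0.069), passed with the replicate block (adjusted p = 0.048). ATP5MC2 was at 0.18 ± 0.10 in control and 0.31 ± 0.16 with CsA, and passed in neither (adjusted p = 0.198 and 0.174). Of the 3 genes for this protein, ATP5MC1 and ATP5MC3 thus fell in both treatments.

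Elsewhere in ATP synthase, ATP5F1D, the delta subunit of the central stalk, fell in control by 0.38 ± 0.10 and 0.31 ± 0.07 in its 2 probe sets (adjusted p = 0.029 and 0.020). With CsA the first fell by 0.47 ± 0.12 (adjusted p = 0.028). ATP5IF1 gave unlike readings. Its dim probe set fell by 1.49 ± 0.20 in control (adjusted p = 0.0026), from 7.40, 7.85 and 7.54 to 5.77, 6.09 and 6.44, while the bright ones were at -0.17 ± 0.09 and 0.02 ± 0.09 and did not pass. With CsA the brightest probe set fell by 0.47 ± 0.13 (adjusted p = 0.029) and the dim one by 2.05 (adjusted p = 0.022). ATP5MK, a small subunit of the dimer interface, fell with CsA by 0.37 ± 0.08 (adjusted p = 0.014), as did the stalk subunit ATP5PD by 0.29 ± 0.09 (adjusted p = 0.046).

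In complex I, 12 of 45 probe sets fell (26.7%, against 18% of all probe sets) and 2 rose (4.44% against 19.8%) in control cells. With CsA 13 fell (28.9% against 19.2%) and 2 rose (4.44% against 19.3%). NDUFA2, of the matrix arm, read 12.45, 12.63 and 12.45 in control at 12 h, 12.39, 12.52 and 12.43 with CsA at 12 h, 11.89, 11.92 and 11.36 in control at 48 h and 11.46, 11.39 and 11.27 with CsA at 48 h. The times did not overlap, while CsA and control overlapped at each time. NDUFA2 fell by 0.79 ± 0.17 in control (adjusted p = 0.014) and by 1.07 ± 0.10 with CsA (adjusted p = 0.00091). NDUFB3 read 10.42, 10.53 and 10.38 in control and 10.34, 10.43 and 10.39 with CsA at 12 h, all above its 48 h values given above. It fell by 0.65 ± 0.12 (adjusted p = 0.0091) and 1.04 ± 0.17 (adjusted p = 0.0059).

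NDUFC1, a membrane arm subunit, fell with little spread between replicates. It read 12.73, 12.76 and 12.75 in control at 12 h, 12.71, 12.71 and 12.70 with CsA at 12 h, 12.40, 12.32 and 12.39 in control at 48 h and 12.21, 12.18 and 12.17 with CsA at 48 h. No groups overlapped, and it fell by 0.38 ± 0.07 in control (adjusted p = 0.0083) and 0.52 ± 0.08 with CsA (adjusted p = 0.0044). The membrane arm subunits NDUFB6 and NDUFA1 and the acyl carrier partner NDUFA6 fell in both treatments. NDUFB6 fell by 0.42 ± 0.08 and 0.68 ± 0.12 (adjusted p = 0.010 and 0.0076). NDUFA1 fell by 0.39 ± 0.12 and 0.52 ± 0.09 (adjusted p = 0.047 and 0.0063). The dimmer probe set of NDUFA6 fell by 0.52 ± 0.13 and 0.86 ± 0.10 (adjusted p = 0.025 and 0.0020). In control, leaving out 1 array ended the call of NDUFA1 in 5 of 6 fits. It ended that of this NDUFA6 probe set in 3 and that of NDUFB6 in 0. NDUFV2, a core iron-sulphur subunit, fell by 0.47 ± 0.09 in control (adjusted p = 0.011), and with CsA was at -0.53 ± 0.20 (adjusted p = 0.082).

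Other complex I genes fell in 1 treatment or lost their call under the block. NDUFA12 fell in control by 0.33 ± 0.07 (adjusted p = 0.015), and with CsA was at -0.21 ± 0.09. NDUFB4, NDUFA3 and NDUFS3 passed as lower with CsA and not in control, by 0.50 ± 0.10, 0.48 ± 0.10 and 0.32 ± 0.09, against -0.23 ± 0.09, -0.21 ± 0.13 and -0.22 ± 0.07 in control. The difference between the treatments did not pass for any of these (adjusted p = 0.378, 0.441 and 0.726). In control, NDUFB10 had an adjusted p of 0.039 and 0.032 in its 2 probe sets and 0.072 and 0.058 with the block, and the brighter probe set of NDUFA6 had 0.048 and 0.068. NDUFB5 rose by 0.28 ± 0.08 (adjusted p = 0.033, and 0.057 with the block).

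NDUFV3 rose in both treatments, by 0.44 ± 0.10 in control (adjusted p = 0.019) and 0.91 ± 0.16 with CsA (adjusted p = 0.0065). Its other probe set was at -0.12 ± 0.08 and 0.29 ± 0.16 and passed in neither, so the rise rests on 1 probe set. NDUFS4 rose with CsA by 0.45 ± 0.09 (adjusted p = 0.012), from 11.40, 11.43 and 11.43 to 11.97, 11.88 and 11.77, and was at 0.21 ± 0.08 in control (adjusted p = 0.071).

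**Figure D4:**
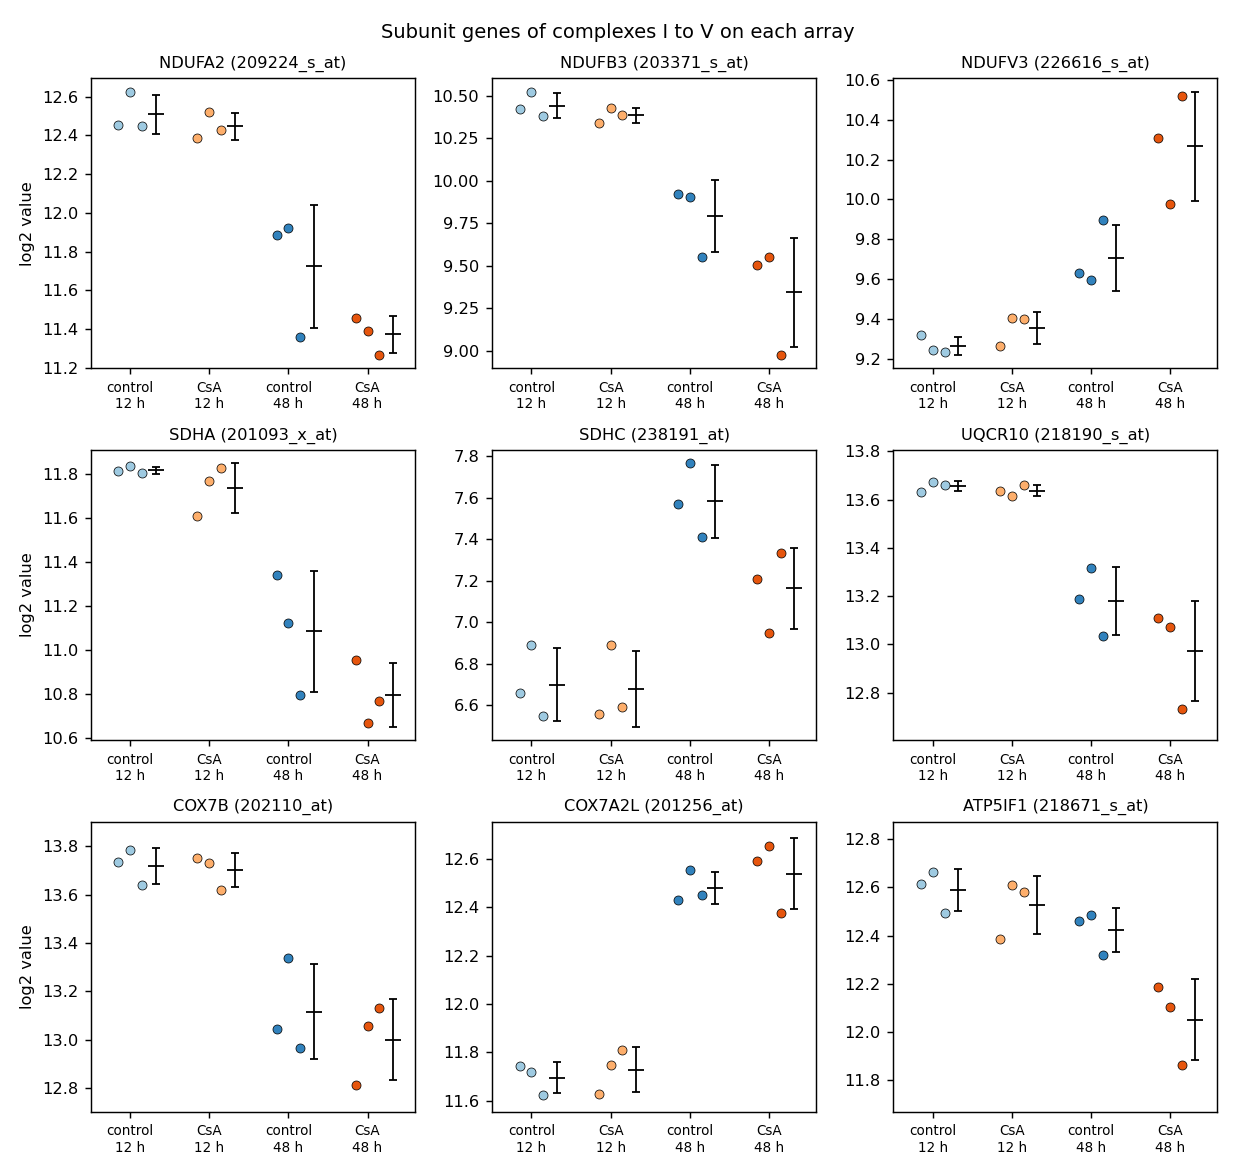
Log2 value of 9 probe sets of complexes I to V on each of the 12 arrays (points, 3 per group), with the mean and SD of each group; the vertical axes differ between panels. NDUFA2, NDUFB3, SDHA, UQCR10 and COX7B are lower at 48 h than at 12 h without overlap, and NDUFV3, COX7A2L and the dim SDHC probe set are higher.

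SDHA fell with time, from 11.81, 11.83 and 11.80 in control and 11.61, 11.77 and 11.83 with CsA at 12 h to the 48 h values given above. The fall was 0.73 ± 0.15 in control (adjusted p = 0.010) and 0.94 ± 0.12 with CsA (adjusted p = 0.0023). SDHD fell with CsA by 0.28 ± 0.09 (adjusted p = 0.048). The 6 probe sets of SDHC disagreed. A dim probe set rose by 0.88 ± 0.13 in control (adjusted p = 0.0040) and 0.48 ± 0.15 with CsA (adjusted p = 0.047), and another dim one fell with CsA by 0.88 ± 0.24 (adjusted p = 0.032). The brightest was at -0.07 ± 0.08 in control and -0.54 ± 0.21 with CsA (adjusted p = 0.085).

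In complex III, UQCR10 read 13.63, 13.67 and 13.66 in control and 13.64, 13.61 and 13.66 with CsA at 12 h, and 13.19, 13.32 and 13.03 in control and 13.11, 13.07 and 12.73 with CsA at 48 h. The times did not overlap, with a fall of 0.48 ± 0.09 (adjusted p = 0.010) and 0.67 ± 0.13 (adjusted p = 0.0093). Its dimmer probe set was at 0.23 ± 0.11 and -0.04 ± 0.18. CYC1 fell in control by 0.45 ± 0.11 (adjusted p = 0.021), from 13.18, 13.09 and 13.27, and with CsA was at -0.16 ± 0.11 (adjusted p = 0.288). That difference between the treatments was 0.30 ± 0.15 (adjusted p = 0.381). UQCRQ and a dim probe set of UQCR11 fell with CsA, by 0.40 ± 0.12 and 0.52 ± 0.13. The core proteins UQCRC1 and UQCRC2 passed in neither.

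In complex IV the members are nuclear subunits only, since the catalytic core is encoded in mitochondrial DNA. COX7B read 13.73, 13.78 and 13.64 in control and 13.75, 13.73 and 13.62 with CsA at 12 h, and 13.04, 13.34 and 12.96 in control and 12.81, 13.06 and 13.13 with CsA at 48 h. The times did not overlap and the treatments did. COX7B fell by 0.60 ± 0.12 (adjusted p = 0.010) and 0.70 ± 0.12 (adjusted p = 0.0059). COX8A fell by 0.41 ± 0.09 and 0.37 ± 0.10 (adjusted p = 0.013 and 0.036). COX7A2 fell by 0.30 ± 0.09 in control (adjusted p = 0.049, and 0.086 with the block) and 0.54 ± 0.14 with CsA (adjusted p = 0.028). COX6B1 and COX6C fell with CsA, by 0.60 ± 0.14 and 0.32 ± 0.08. In control COX6B1 was at -0.34 (adjusted p = 0.059) and passed with the replicate block (adjusted p = 0.046).

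COX7A2L moved against these. It is the COX7A relative known as a supercomplex assembly factor, which links complexes III and IV. It read 11.74, 11.72 and 11.62 in control and 11.63, 11.75 and 11.81 with CsA at 12 h, and 12.43, 12.55 and 12.45 in control and 12.59, 12.65 and 12.38 with CsA at 48 h. Every 48 h array lay above every 12 h array, with a rise of 0.79 ± 0.08 in control (adjusted p = 0.00099), 1.72 times, and 0.81 ± 0.11 with CsA (adjusted p = 0.0033). The CsA difference was 0.06 ± 0.12 at 48 h. COX4I1, COX5B, COX6A1, COX7C and the bright probe set of COX5A passed in neither treatment. The dim probe set of COX5A fell with CsA by 1.01 ± 0.20 (adjusted p = 0.010), the largest fall called in complex IV, and in control was at -0.16 ± 0.16. COXFA4, once named NDUFA4 and no member by its present symbol, fell by 0.38 ± 0.09 (adjusted p = 0.020) and 0.58 ± 0.13 (adjusted p = 0.015), and COXFA4L2 (once NDUFA4L2) stayed near background.

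**Figure D5:**
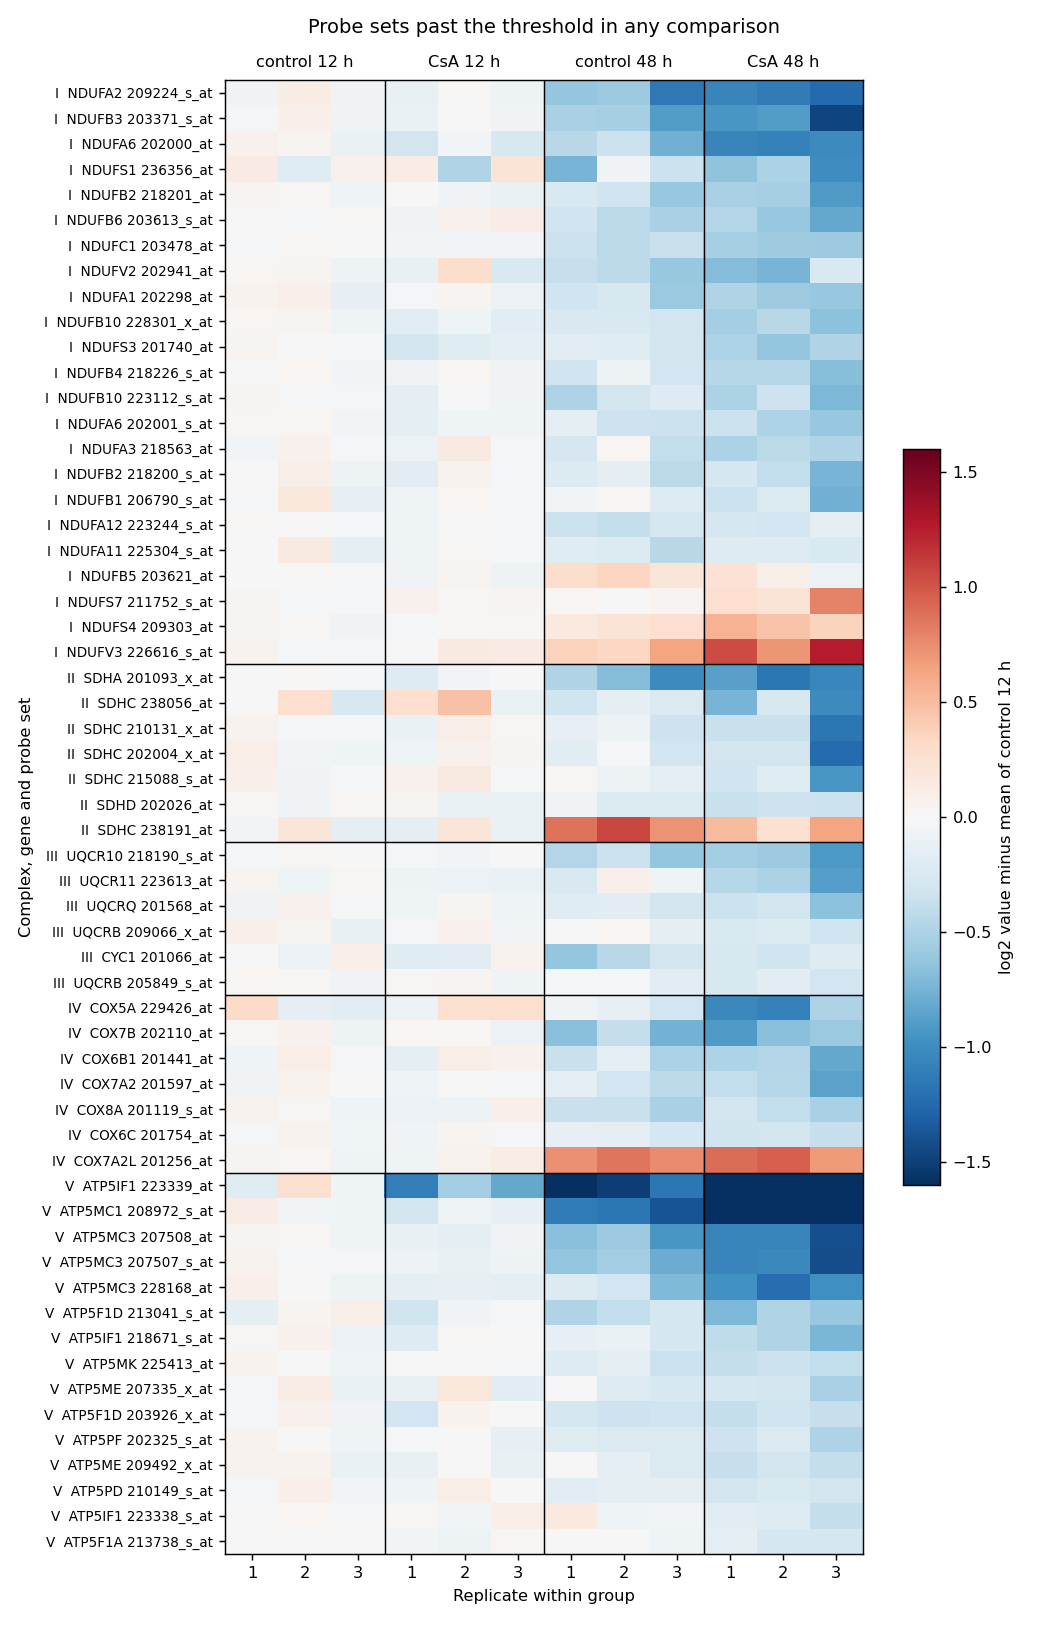
Log2 value on each of the 12 arrays minus the mean of the 3 control 12 h arrays, for the 58 probe sets of 44 genes that passed the threshold in any comparison, in the fit of the arrays compared or of all 12; colours end at 1.6 either way, and 6 cells lie beyond. The 12 h arrays are mostly pale in both treatments, with the dim probe set of ATP5IF1 lower with CsA (-0.83). The 48 h arrays are mostly blue (lower).

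Probe sets of 1 gene did not always agree. Of the 28 genes with more than 1 probe set tested, 4 (ATP5F1C, NDUFA11, NDUFB2 and NDUFS1) had CsA differences of both signs at 48 h. Of the 117 probe sets tested, 20 end in x_at and 41 in s_at, names that mark probes shared with other sequences or with other transcripts of the gene.

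Genes that serve the same chain were read beside the subunits, by lists drawn up with earlier results of these data known. The 10 probe sets of 7 mitochondrially encoded subunits did not pass in any comparison, with medians of 0.01 for CsA at 48 h and -0.02 for time in control. At 48 h of CsA no probe set passed among 119 of the mitochondrial ribosome (median 0.04), 26 of complex I assembly factors (0.02), 56 of other assembly factors (-0.07), 42 of the citric acid cycle and pyruvate oxidation (-0.13), 42 of protein import (0.10), 38 of regulators of mitochondrial genes (0.04) and 35 of glycolysis (-0.09). PPARGC1A, a coactivator of mitochondrial genes, had the smallest p of its list and was at -2.22 ± 0.38 (adjusted p = 0.081). DNA replication genes had a median of -0.70 and mitosis genes -0.58, with 1 and 0 probe sets called.

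These lists are also read against the 18% of all probe sets that fell with time in control cells and the 19.8% that rose. Of the mitochondrial ribosome's 119 probe sets 33 fell (27.7%) and 14 rose (11.8%), and in the citric acid cycle and pyruvate oxidation 9 of 42 fell (21.4%, near the background) and 3 rose (7.14%). Of 13 for adenine nucleotide and phosphate exchange and permeability transition, 6 fell (46.2%) and 0 rose, among them PPIF, cyclophilin D, the mitochondrial cyclophilin that CsA is known to bind (-0.58 ± 0.13, adjusted p = 0.018). In glycolysis 17 of 35 fell (48.6%) and 4 rose (11.4%), and LDHA, lactate dehydrogenase A, fell by 0.82 ± 0.08 (adjusted p = 0.00096). CYCS, cytochrome c, rose by 1.25 in 1 probe set (adjusted p = 0.024), and TFAM, the mitochondrial transcription factor, fell by 0.59 in 1 of its probe sets (adjusted p = 0.0075). The stress genes DDIT3 and GDF15 rose by 4.84 and 3.37 on the log2 scale (adjusted p = 0.00018 and 0.00017), in the same control cultures.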

How the data were processed

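Expression was measured in total RNA of HK-2 cells on 12 Affymetrix arrays. Per the submitters' processing notes, the authors summarized probe sets with GCRMA, and the deposited values are on the log2 scale. Its version and settings are not named in these notes. GCRMA corrects background from probe sequence and usually normalizes quantiles between arrays, so a shift shared by all genes would not be seen, and dim probe sets lie near a floor.

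A platform annotation gave 1 gene for 41097 of 54675 probe sets, several for 1801 and none for 11777. Of the 41097, 41043 matched RefSeq (GRCh38.p14) by gene identifier, which gave present symbols. Control probe sets and those without a log2 value above 4 on at least 3 arrays were left out, which left 23671. Each comparison was fitted on its own 6 arrays with lmFit and eBayes of limma 3.58.1 (R 4.3.3), the difference of the CsA effects on all 12, two-sided, with Benjamini-Hochberg adjustment over all 23671 and a threshold of 0.05. The fits were tested on simulated data with known changes. At 48 h the fit of the 6 arrays missed most of them, and the fit of all 12 made many false calls. In each comparison simulated, the false share among the calls of the 6-array fit was also above the threshold of 0.05. An SE is the fit's. The number of arrays limits the precision, and no 2 arrays of 66 pairs held identical values.

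The members and lists were chosen with earlier results of these data known. Any member may be named. Values on every array are in the text or the heatmap for members past the threshold. The same holds for most of the highest and lowest changes at 48 h in each complex, but not for COX5B, UQCRC1 and ATP5F1C. The brightest probe set stands for a gene where 1 value is given. Stress, regulator and glycolysis genes named outside the members were past the threshold, or had the smallest p of their list at 48 h.

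Same-numbered arrays deviated together at 12 h (correlations of 0.439, 0.540 and 0.372) and, more weakly, between control times (0.142, 0.127 and 0.293). There the replicate number was taken to pair the samples, which the main fits leave out and the replicate block takes in. They did not between CsA and control at 48 h (-0.116, 0.306 and -0.152) or between CsA times (0.171, -0.015 and -0.075). Alternatives were centring, other filters, other choices of probe set, the replicate block, array weights, a trended robust prior, all 12 arrays in 1 fit and each array left out. Protein sequences were not used here.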

Additional observations from a re-analysis of the deposited data

How the results depend on the processing

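Medians over members mostly kept their direction and size. The counts called with time, and those in the fit of all 12 arrays, moved when single arrays were left out. In the fit of all 12 arrays 11 members were called for CsA at 48 h, and array weights called 1 there and 1 for the difference of the CsA effects. Leaving out both 48 h replicate 1 arrays reduced the 11 to 1, and leaving out single arrays gave 0 to 14. Without a filter the control median with time was -0.046. Leaving out 1 array gave 15 to 25 calls with time in control and 20 to 46 with CsA. With the replicate block 25 members were called with time in control cells, where the numbers were taken to pair the samples, against 28. In CsA cells, where the arrays share only a number, 23 were called against 38. In control the block ended 5 calls (COX7A2, NDUFB5, 1 probe set of NDUFA6 and 2 of NDUFB10) and added 2 (COX6B1 and 1 probe set of ATP5MC3). In CsA cells it ended 15 and added 0. These were COX6B1, COX6C, COX7A2, COX8A, UQCRQ, UQCR11, SDHD, ATP5PD, ATP5MK, NDUFS3, the brightest probe set of ATP5IF1, a dim one of SDHC, the brighter one of NDUFA6 and both of NDUFB10, with adjusted p of 0.0502 to 0.124. The block called 0 members for CsA at 12 h and 48 h. ATP5F1C at 48 h, near 0, turned to 0.035 with centring, 0.040 with the mean of its probe sets and 0.0084 without both replicate 1 arrays, and ranged from -0.048 to 0.035 with single arrays left out (0.035 without control 48 h replicate 2). NDUFV3 at 12 h turned to -0.031 with the mean of its probe sets. The cause was not tested. With 3 arrays a group, the 48 h comparison shows only large changes, and dim probe sets near the floor are the least certain.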
